A study of Homo sapiens with 15 samples.

Results

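The genes described here are 9 transcriptional targets of the tumour suppressor p53, chosen by name: MDM2, DDB2, XPC, GDF15, ZMAT3, RRM2B, PHLDA3, TP53I3 and BTG2. A probe set assigned to a single gene was found for 7 of the 9. RRM2B and BTG2 had none and are not analysed here. Of the 7, GDF15 was among the 25% of genes with the lowest mean and was left out of the test, so 6 members were tested among 9111 genes. Expression was measured in 15 samples of HMT3522 breast epithelial cells embedded in laminin-rich matrix in 3 dimensions, on Affymetrix human genome arrays. S1 (3 samples) is the nonmalignant line and T4 (3 samples) its malignant counterpart. The remaining 9 samples (T4R) are reverted T4 cells, named so in the labels, with 1 sample for each agent. The agents are the MMP inhibitor GM6001, an MMP and ADAM inhibitor, TNF protease inhibitor-2, the MAPK inhibitor PD98059, the PI3K inhibitor LY294002, dominant-negative Rap1, the EGFR inhibitors Tyrphostin AG 1478 (called the tyrphostin here) and mAb225, and the β1-integrin inhibitor AIIB2. Doses, times and any vehicle are unstated in the labels, and S1 and T4 are each a single cell line.

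When DNA is damaged or a cell is stressed, p53 accumulates, binds paired decamer elements in DNA and raises its target genes. MDM2 encodes the ubiquitin ligase that in turn removes p53. DDB2 and XPC recognise damaged DNA for nucleotide excision repair, PHLDA3 restrains AKT, TP53I3 encodes a quinone oxidoreductase linked to oxidative stress, ZMAT3 binds RNA, and GDF15 is a secreted stress cytokine. In mammary epithelium the same pathway stops division and removes damaged cells.

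The arrays were of 2 types, each with its own value table. The first type holds S1 samples 1 and 2, the 3 T4 samples, LY294002, GM6001 and the combined MMP and ADAM inhibitor (8 samples). The second holds S1 sample 3 and the other 6 agents (7 samples). Levels are given as deposited log2 expression, and sample medians over all probe sets lay between 7.33 and 7.40. In each line, sample 3 stood apart. S1 sample 3 differed at least 2-fold from S1 samples 1 and 2 in 553 and 648 genes, against 16 between those 2, and T4 sample 3 from T4 samples 1 and 2 in 356 and 426, against 6. Keratins of the basal epithelium were high throughout, with KRT5 between 13.12 and 14.13, and KRT14 between 13.58 and 14.52, and of the luminal keratins KRT18 lay between 10.41 and 11.81, KRT8 between 8.43 and 10.15 and KRT19 between 6.52 and 6.78. KRT18 was higher in T4 than in S1 (0.98 ± 0.21, adjusted p = 0.00331) and fell by 1.07 ± 0.19 with the agents (adjusted p = 0.00255). The epithelial marker EPCAM rose with the agents (0.93 ± 0.24, adjusted p = 0.0214), and KRT8 was higher in T4R than in S1 (0.71 ± 0.22, adjusted p = 0.0342). The 6 tested epithelial markers had no other calls. Of the markers of other cell types fixed for the check, 2 of 7 fibroblast, 2 of 5 leukocyte and 3 of 5 endothelial genes were in the dimmest 25% of genes. The mean log2 level of the fibroblast list ran from 7.16 to 7.17 in S1, from 7.25 to 7.37 in T4 and from 7.28 to 7.78 in T4R. Of its genes, COL1A1 ranged from 7.20 (S1 sample 3) to 10.67 (the tyrphostin) and DCN from 7.21 (S1 sample 2) to 9.57 (dominant-negative Rap1), with DCN at 8.70 in S1 sample 3 and in AIIB2. COL1A1 (1.46 ± 0.43, adjusted p = 0.0237) and COL3A1 (0.21 ± 0.07, adjusted p = 0.0486) were higher in T4R than in S1. The leukocyte marker CD14 was higher in T4 (0.97 ± 0.26, adjusted p = 0.0132) and T4R (0.77 ± 0.21, adjusted p = 0.0183) than in S1, and read 8.77 in T4 sample 3 against 7.61 in each other T4 sample. The part of these markers in the members' values was not tested. In cultures such as these, fewer cells that express a gene and less of its RNA per cell cannot be told apart.

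The p53 element has been mapped near the start sites of several of these genes, and the member promoters in RefSeq (GRCh38.p14) were searched for it. The windows hold 250 bases before and 50 after a start site, and 11 windows were found for 6 of the 7 measured members (none for PHLDA3). The search was for the p53 consensus decamer pair, with a spacer of up to 13 bases and at most 2 mismatches in all. The decamer is its own reverse complement, so the search covers both strands, and overlapping matches were counted once for each window. An element was found in 3 of the 11 member windows, those of DDB2 and MDM2, against 2.93% of all 35116 windows. By gene this is 2 of 6 members, against 3.62% of 27305 genes. The sequences are shown because these are the members in which the letters of a p53 element lie next to a start site, with capitals marking the decamers.
DDB2, chr11:47214979-47214999, plus strand: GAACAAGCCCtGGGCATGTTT
MDM2, chr12:68808903-68808962, plus strand: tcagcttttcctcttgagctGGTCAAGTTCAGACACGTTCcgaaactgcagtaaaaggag
The DDB2 element has a spacer of 1 base and no mismatch, and begins 5 bases past a DDB2 start site. The MDM2 element has 2 mismatches and no spacer, and begins 94 bases before an MDM2 start site that lies downstream of other MDM2 start sites in the table. In DDB2, other matches with 1 mismatch each overlap the element shown. A match is a description of the letters and not a measured site, and no match in the other windows says only that these letters are not there.

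XPC was the only tested member called between the lines. It was lower in T4 than in S1, at adjusted p = 0.0343, and the other 5 tested members did not pass the test. That is 1 of 6, against 26.9% of all genes tested (12.3% lower, 14.6% higher), by limma with Benjamini-Hochberg adjustment over all genes and a threshold of 0.05. The median log2 difference of the 6 members was -0.29, against 0.01 over all genes, with 5 members below 0 and TP53I3 above. Deposited values of S1 and T4 did not overlap for XPC, PHLDA3 and TP53I3, which is 3 of 6 members, against 37.1% of all genes. Differences and standard errors come from a fit with the array type as a fixed block, so a constant gap between array types is taken out. The labels do not say whether samples of a line were separate cultures, so the spread within a line may be technical. The 3 groups share 1 fitted spread, and the 9 T4R samples each had a different agent. The p-values, also those of T4 against S1, cover only the spread among these arrays, which includes differences between agents.

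**Figure D1:**
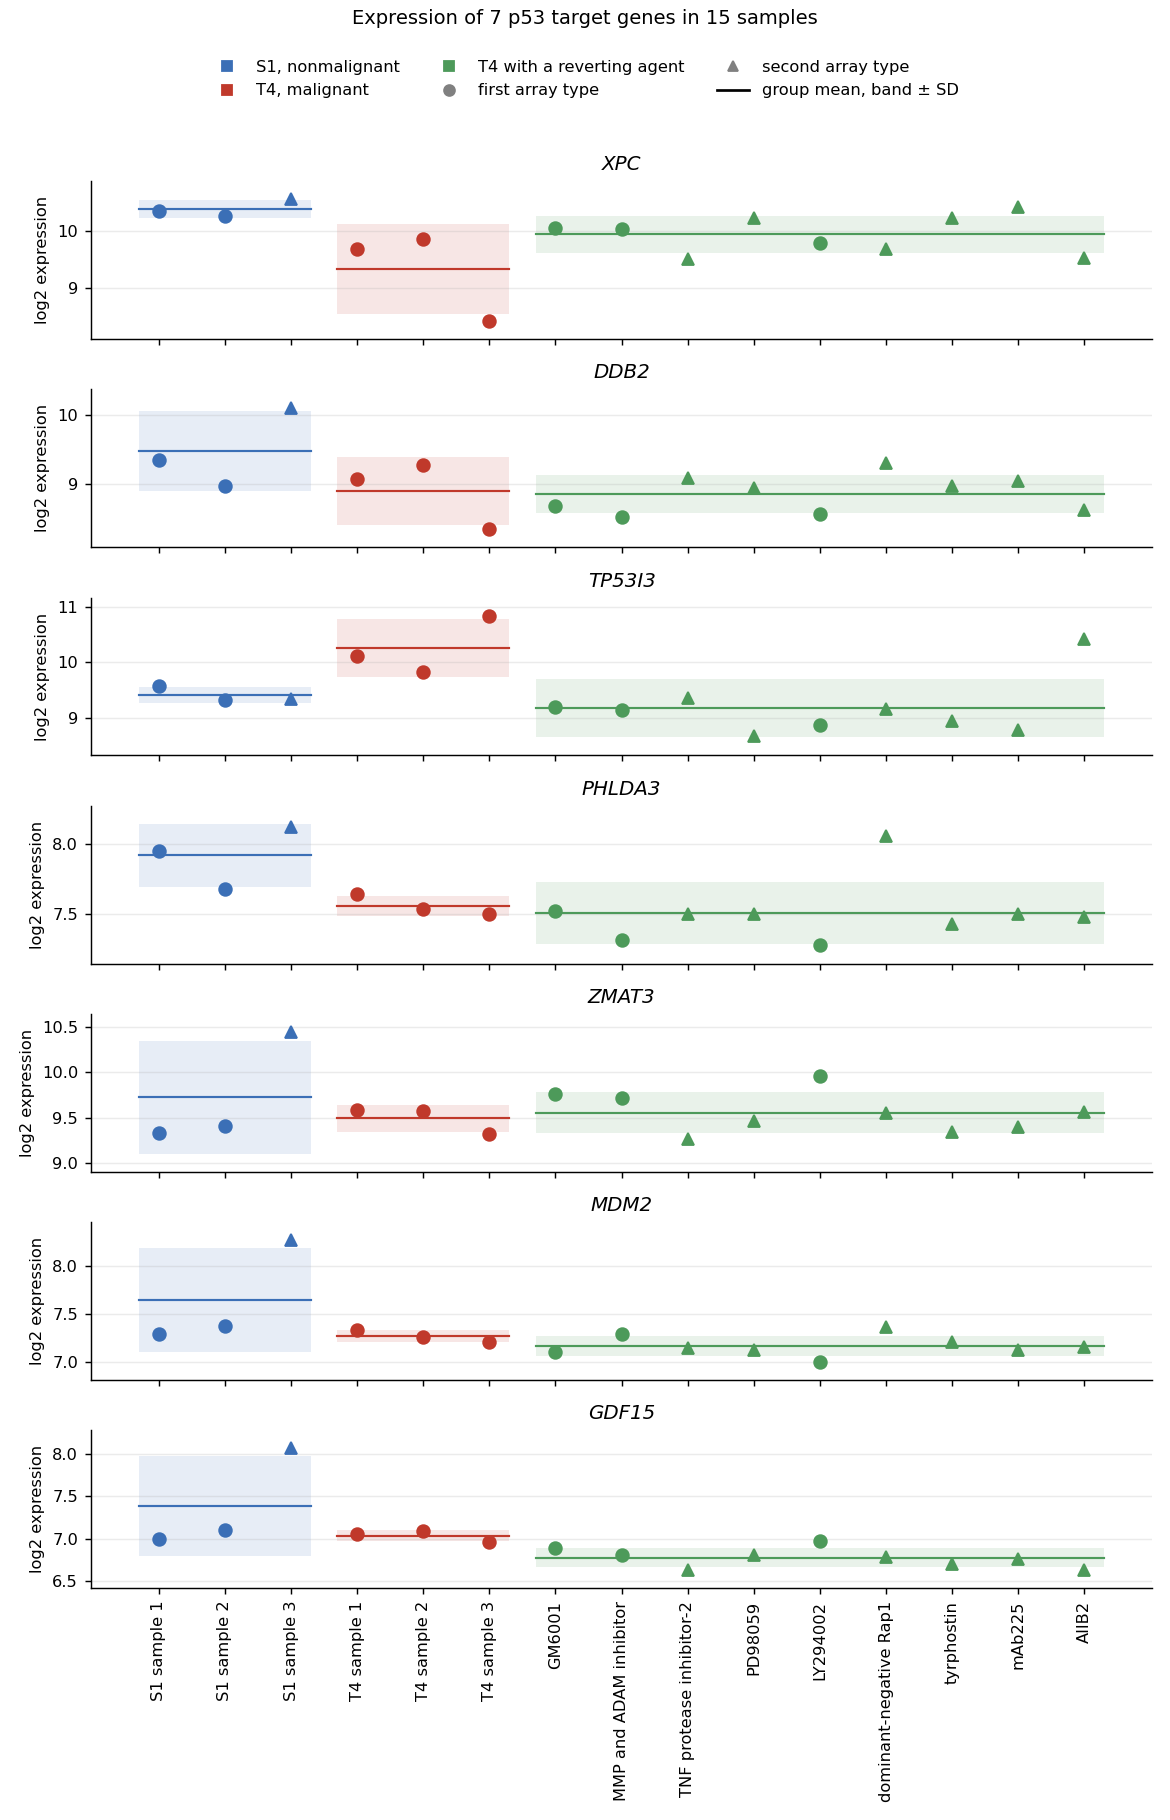
Log2 expression of the 7 measured members (1 panel each, own y axis) in each of the 15 samples on the x axis. Colours mark S1, T4 and T4R, circles and triangles the array types, lines the group means and bands ± 1 SD. S1 sample 3 holds the highest value of 6 of the 7 genes, and T4 sample 3 the lowest XPC and DDB2 and the highest TP53I3.

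Of the pair that recognises DNA damage, XPC was the member with the clearest gap between the lines. XPC stood at 10.33, 10.25 and 10.54 in S1 samples 1, 2 and 3, and at 9.69, 9.86 and 8.44 in T4 samples 1, 2 and 3. All 3 T4 samples lay below all 3 S1 samples, and T4 sample 3 lay 1.33 below the mean of the other T4 samples. The fitted difference was -1.03 ± 0.33 (SE; 95% confidence interval -1.74 to -0.31), a 2.04-fold lower level in T4. Within the first array type, with S1 samples 1 and 2, it was -0.96 (adjusted p = 0.0929). XPC missed the threshold without S1 sample 1 (adjusted p = 0.0861), S1 sample 2 (0.0732), S1 sample 3 (0.0685) or T4 sample 3 (0.122), and without T4 sample 3 the difference was -0.58. With the replicate number as a block beside the array type it passed at -0.51 (adjusted p = 0.00757), and with that block alone it did not (-1.04, adjusted p = 0.105). With both blocks, neither sample numbered 3 informs the difference, which rests on samples 1 and 2 of each line. After joint removal of dominant-negative Rap1 and both samples numbered 3, XPC was also at -0.51 and did not pass (adjusted p = 0.169). With the agents, XPC ranged from 9.51 (TNF protease inhibitor-2) through a median of 10.02 to 10.41 (mAb225). The difference of T4R from T4 did not pass (0.58 ± 0.31, adjusted p = 0.242; 0.13 without T4 sample 3, adjusted p = 0.816), and neither did that of T4R from S1 (-0.45 ± 0.27, adjusted p = 0.272).

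DDB2, the small subunit of the UV damage sensor, stood at 9.35, 8.97 and 10.11 in the S1 samples and at 9.08, 9.28 and 8.35 in the T4 samples. The lines overlapped, and the lowest value of all 15 samples was in T4 sample 3. The difference of T4 from S1 was -0.39 ± 0.23 (adjusted p = 0.231). Agent samples ranged from 8.52 with the MMP and ADAM inhibitor through a median of 8.94 to 9.30 with dominant-negative Rap1, and all lay within the range of S1 and T4 together. DDB2 read 0.54 higher on the second array type than on the first (adjusted p = 0.0399), a term called for 17.9% of all genes, and taking that term out placed all 9 agent samples below the T4 mean. The fitted difference of T4R from T4 was -0.40 ± 0.21 (adjusted p = 0.234). It passed without T4 sample 3 (-0.68, adjusted p = 0.0327), with array weights (-0.52, adjusted p = 0.00301) and after joint removal of dominant-negative Rap1 and both samples numbered 3 (-0.59, adjusted p = 0.0144). With no array type block and quantile normalization across tables it was 0 (adjusted p = 0.991).

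The repair proteins that work with DDB2 and XPC included genes called in each direction. Of 20 tested genes of nucleotide excision repair, 3 were higher and 3 lower in T4, with a median difference of 0.08. DDB1, the partner that DDB2 needs to bind chromatin, fell by 0.97 ± 0.15 (adjusted p = 0.000371), RPA1, which coats single-stranded DNA, fell by 0.78 ± 0.12, and the TFIIH subunit gene GTF2H1 fell by 0.63 ± 0.16. CUL4A (0.62 ± 0.17), the endonuclease subunit gene ERCC1 (0.52 ± 0.14) and RBX1 (0.40 ± 0.13) rose. RAD23B, which stabilises XPC, stood at 0.30 ± 0.21 (adjusted p = 0.33). With the agents, 6 of the 20 rose over T4 and 1 fell, where 6.46% of all genes rose and 8.44% fell. DDB1 rose by 0.69 ± 0.14 (adjusted p = 0.00478), RPA1 by 0.47 ± 0.11, GTF2H1 by 0.57 ± 0.15 and the centrin gene CETN2 by 0.51 ± 0.14, while ERCC1 fell by 1.58 ± 0.13 (adjusted p = 9.22e-06). Against S1, T4R was higher in 6 of the 20 and lower in 2. The 4 of smallest p among the higher were GTF2H5 (0.58 ± 0.12), RPA2 (0.58 ± 0.13), CUL4A (0.62 ± 0.14) and ERCC5 (0.57 ± 0.14). The lower were ERCC1 (-1.06 ± 0.12) and RPA1 (-0.31 ± 0.10). DDB1, RPA1 and GTF2H1 thus fell in T4 and rose with the agents. Both comparisons use the same T4 samples, so an error in the T4 mean moves them in opposite directions. Without S1 sample 3 the counts of higher and lower genes were 2 and 3, 7 and 1, and 4 and 1 in the order above.

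TP53I3 was the tested member called lower with the agents. It stood at 9.57, 9.33 and 9.34 in S1, at 10.12, 9.83 and 10.84 in T4, and with the agents ranged from 8.67 (PD98059) through a median of 9.15 to 10.43 (AIIB2). Every T4 sample lay above every S1 sample, and 8 of the 9 agent samples lay below every T4 sample. AIIB2, the β1-integrin antibody, was the exception and lay within the T4 range. TP53I3 fell by 1.14 ± 0.35 from T4 to T4R (95% confidence interval -1.90 to -0.39, 2.21-fold, adjusted p = 0.0436). TP53I3 was the only call among the 6 members in that comparison, in which 14.9% of all genes were called (8.44% lower) and the median was -0.24 for the members and 0 for all genes. Deposited values of T4 and T4R overlapped for all 6 members, against 15.2% of all genes without overlap. Within the first array type, with 3 samples in each group, the difference was -1.19 (adjusted p = 0.0185). The call is near the threshold: it was lost when any of 11 of the 15 samples was left out, most of all without T4 sample 3 (-0.86, adjusted p = 0.178), LY294002 (-1.05, adjusted p = 0.103) or the MMP and ADAM inhibitor (-1.16, adjusted p = 0.0847). It was also lost after joint removal of dominant-negative Rap1 and both samples numbered 3 (-0.90, adjusted p = 0.149). The other 8 were S1 samples 1 (adjusted p = 0.053), 2 (0.0633) and 3 (0.0529), T4 sample 1 (0.0794), GM6001 (0.0792), TNF protease inhibitor-2 (0.0549), the tyrphostin (0.0576) and mAb225 (0.0521).

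TP53I3 in T4 against S1 stood at 0.88 ± 0.38 and did not pass (adjusted p = 0.103). It passed without AIIB2 (0.82, adjusted p = 0.022) and with the replicate block beside the array type (0.53, adjusted p = 0.00436), and not with that block alone (0.85, adjusted p = 0.0623). With both blocks the difference rests on samples 1 and 2 of each line. After joint removal of dominant-negative Rap1 and both samples numbered 3 it was also 0.53 and did not pass (adjusted p = 0.41). T4R and S1 differed by -0.26 ± 0.31 (95% confidence interval -0.94 to 0.41). MKI67, a proliferation marker, was also highest in T4 sample 3, at 10.52 against 9.63 and 9.29 in the other T4 samples, 7.47 to 9.21 in S1 and 7.49 to 9.62 in T4R. MKI67 rose by 1.73 ± 0.48 in T4 (adjusted p = 0.0168) and fell by 1.60 ± 0.45 with the agents (adjusted p = 0.0284). Of 10 cell division genes, 6 were higher in T4 than in S1, and MKI67 was the only 1 lower in T4R than in T4, a count that was 0 without S1 sample 3. The part of proliferation in the TP53I3 and XPC values was not tested.

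PHLDA3, which competes with AKT for membrane lipids, had low levels near the median gene. It stood at 7.95, 7.68 and 8.12 in S1, at 7.64, 7.54 and 7.50 in T4, and with the agents between 7.28 (LY294002) and 8.05 (dominant-negative Rap1) with a median of 7.50. The T4 samples all lay below the S1 samples by a small margin, at a fitted -0.28 ± 0.15 (adjusted p = 0.176), which passed without dominant-negative Rap1 (-0.30, adjusted p = 0.0255). T4R did not differ from T4 past the threshold (-0.20 ± 0.14, adjusted p = 0.358). Against S1, T4R was lower by a fitted -0.49 ± 0.12 (adjusted p = 0.0104). Dominant-negative Rap1 was the agent sample that lay within the S1 range, and the other 8 lay below all S1 samples.

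MDM2, the p53 ubiquitin ligase, was low in nearly all samples, at 7.29 and 7.37 in S1 samples 1 and 2 and at 7.33, 7.26 and 7.21 in T4. S1 sample 3 alone stood higher, at 8.27. Agent samples ranged from 7.0 (LY294002) through a median of 7.14 to 7.36 (dominant-negative Rap1). The differences were -0.29 ± 0.17 for T4 against S1 (adjusted p = 0.23), -0.28 ± 0.16 for T4R against T4 (adjusted p = 0.26) and -0.57 ± 0.14 for T4R against S1 (adjusted p = 0.00938). MDM2 had 4 probe sets, and the 3 not used had means of 6.74 to 7.18. Of these, 211832_s_at read 7.63 in S1 sample 3 and 7.14 to 7.22 in the other S1 samples, 205386_s_at read 7.51 there against 6.48 and 6.63, and 205385_at showed no such gap (6.76 against 6.72 and 6.80). In a fit of all 19707 single-gene probe sets, the lower T4R level passed for 211832_s_at (-0.27 ± 0.07, adjusted p = 0.0207) and for the probe set used (adjusted p = 0.0128), but not for 205386_s_at (-0.28 ± 0.12, adjusted p = 0.148) or 205385_at (0.03 ± 0.04, adjusted p = 0.745).

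GDF15, the stress cytokine, was near the bottom of the range, at 6.99 and 7.10 in S1 samples 1 and 2, 8.06 in S1 sample 3, and 7.05, 7.09 and 6.96 in T4. With the agents it lay between 6.63 (TNF protease inhibitor-2) and 6.97 (LY294002) with a median of 6.78. The lower quartile of genes lay between 6.93 and 6.99 in the samples, so most GDF15 values cannot be told from those of dim genes, and no detection call marks which of them were measured. With no filter on dim genes, GDF15 was lower in T4R than in S1 (-0.65 ± 0.17, adjusted p = 0.0176), and without S1 sample 3 it was not (-0.16 ± 0.07, adjusted p = 0.209). Its second probe set, 221576_at, read 6.59 to 6.88 and had 6.72 in S1 sample 3.

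ZMAT3, the RNA-binding member, stood at 9.33 and 9.41 in S1 samples 1 and 2 and at 10.44 in S1 sample 3. The T4 samples read 9.59, 9.57 and 9.32. Agent samples ranged from 9.27 (TNF protease inhibitor-2) through a median of 9.55 to 9.96 (LY294002), so only S1 sample 3 lay clearly apart. No comparison passed: the differences were -0.24 ± 0.26 for T4 against S1 (adjusted p = 0.546), 0.07 ± 0.24 for T4R against T4 (adjusted p = 0.877) and -0.16 ± 0.21 for T4R against S1 (adjusted p = 0.639). Without S1 sample 3 the last of these turned to 0.45 ± 0.11 and passed (adjusted p = 0.0173). No S1 sample is then left on the second array type, so this difference rests on the 3 agents of the first. The fit of the first array type alone therefore gave the same difference (0.45, adjusted p = 0.0324). With array weights the difference was 0.31 (adjusted p = 0.0405).

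Set against S1, the reverted cells had lower DDB2 (-0.80 ± 0.19, adjusted p = 0.00807), MDM2 and PHLDA3, which is 3 of 6 tested members against 23.2% of all genes (11.4% lower, 11.8% higher). All 6 fitted differences were below 0, with a median of -0.47 against 0 over all genes, and deposited values overlapped for all 6 (15.6% of all genes had none). S1 sample 3 alone left out ended all 3 calls. Without it, DDB2 stood at -0.57 ± 0.24 (adjusted p = 0.118), MDM2 at -0.20 ± 0.10 (adjusted p = 0.189) and PHLDA3 at -0.44 ± 0.16 (adjusted p = 0.0783), and the sole call was the higher ZMAT3. These differences rest on the 3 agents of the first array type, since no S1 sample is then left on the second. When dominant-negative Rap1 and T4 sample 3 were left out as well, DDB2 (-0.57, adjusted p = 0.0111) and PHLDA3 (-0.44, adjusted p = 0.00458) passed and MDM2 did not (-0.20, adjusted p = 0.104). DDB2 also lost its call with no array type block (-0.62, adjusted p = 0.0788), and MDM2 with array weights (-0.22, adjusted p = 0.0646). Within the first array type, with 2 S1 and 3 agent samples, the means of T4R and S1 differed by -0.57 for DDB2, -0.20 for MDM2 and -0.44 for PHLDA3, which passed there (adjusted p = 0.0329). Within the second, with S1 sample 3 and 6 agents, they differed by -1.11, -1.09 and -0.54.

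**Figure D2:**
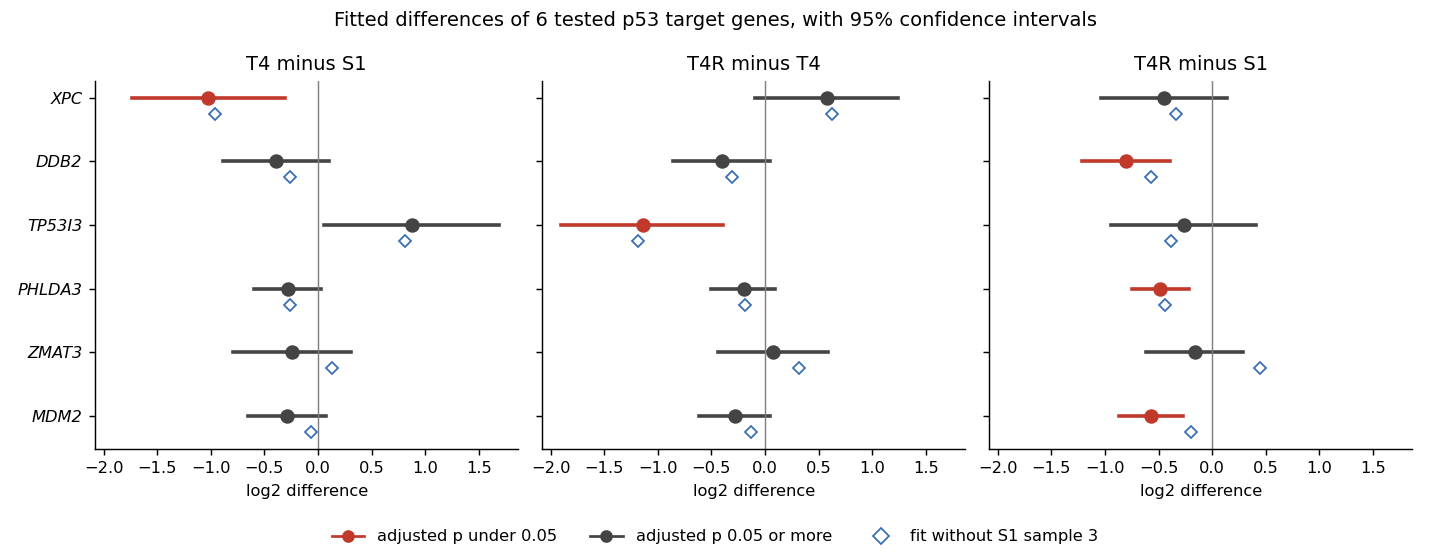
Fitted log2 differences (x axis) of the 6 tested members (y axis) in the 3 comparisons, with 95% confidence intervals as bars. Red marks adjusted p under 0.05, and open diamonds the same fit without S1 sample 3, where MDM2 in T4R against S1 moves from -0.57 to -0.20 and ZMAT3 from -0.16 to 0.45.

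S1 sample 3 held the highest of the 15 values for 6 of the 7 measured members, all but TP53I3. Among all 12149 genes with a probe set, 13.4% had their highest value in that sample and 14.2% their lowest. The sample was singled out after its values were seen. Its level exceeded the mean of S1 samples 1 and 2 by 1.08 for ZMAT3, 1.01 for GDF15, 0.95 for DDB2, 0.94 for MDM2, 0.31 for PHLDA3 and 0.25 for XPC, and was 0.11 lower for TP53I3. The median over all genes tested was 0. Of 32 other measured p53 targets, 10 had their highest value in this sample and 3 their lowest. It is also the only S1 sample on the second array type, so a difference of this culture and a difference of array type within S1 cannot be told apart. The 6 agent samples of that array type read 7.12 to 7.36 for MDM2, 9.27 to 9.56 for ZMAT3, 8.62 to 9.30 for DDB2 and 7.43 to 8.05 for PHLDA3. The 3 of the other type read 7.0 to 7.29, 9.72 to 9.96, 8.52 to 8.68 and 7.28 to 7.52.

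With single agents, the direction was the same in nearly all samples for several members once the array type term was removed. T4 has no sample on the second array type, so the direction of its 6 agents can depend on that term. After removal of the array type term, XPC was above the T4 mean in 9 of 9 agent samples, by 0.13 (TNF protease inhibitor-2) to 1.03 (mAb225). T4 sample 3 lowers that mean, and only 6 of the 9 lay above the mean of T4 samples 1 and 2, with TNF protease inhibitor-2, dominant-negative Rap1 and AIIB2 below it. DDB2 was below the T4 mean in 9 of 9, at -0.15 with dominant-negative Rap1 to -0.83 with AIIB2. As deposited, DDB2 lay above it with dominant-negative Rap1 (0.39), TNF protease inhibitor-2 (0.18), mAb225 (0.14), the tyrphostin (0.08) and PD98059 (0.04). The other agents lay below. With the term removed, GDF15 was below the T4 mean in 9 of 9, TP53I3, PHLDA3 and MDM2 in 8 of 9, and ZMAT3 in 4 of 9. The agent that departed from the others was AIIB2 for TP53I3 (0.08 above the T4 mean, against -0.99 to -1.68 with the other 8), dominant-negative Rap1 for PHLDA3 (0.26 above) and the MMP and ADAM inhibitor for MDM2 (0.03 above). Against T4 samples 1 and 2 alone, DDB2 and GDF15 were again below in 9 of 9, and TP53I3 and PHLDA3 in 8 of 9. As deposited, DDB2 was below these 2 samples' mean in 8 of 9. GDF15 lay near the dim end, and its second probe set, 221576_at, showed no such fall. That probe set differed by 0.02 ± 0.06 from T4 to T4R in the limma fit of all single-gene probe sets (adjusted p = 0.909). ZMAT3 was highest over the T4 mean with LY294002, at 0.46. Each agent has 1 sample, so these are descriptions with no test. The array type term is itself partly estimated from S1 sample 3. Without that sample it is only the gap between the agents of the 2 array types. It then went from 0.27 to 0.05 for MDM2 and from -0.02 to -0.38 for ZMAT3. Removing it places the 6 agents of the second type around the mean of the other 3, which lay above every T4 sample as deposited. ZMAT3 above every T4 sample with 9 of 9 agents thus largely follows from the removal. As deposited, 3 of 9 lay above every T4 sample and 1 below.

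**Figure D3:**
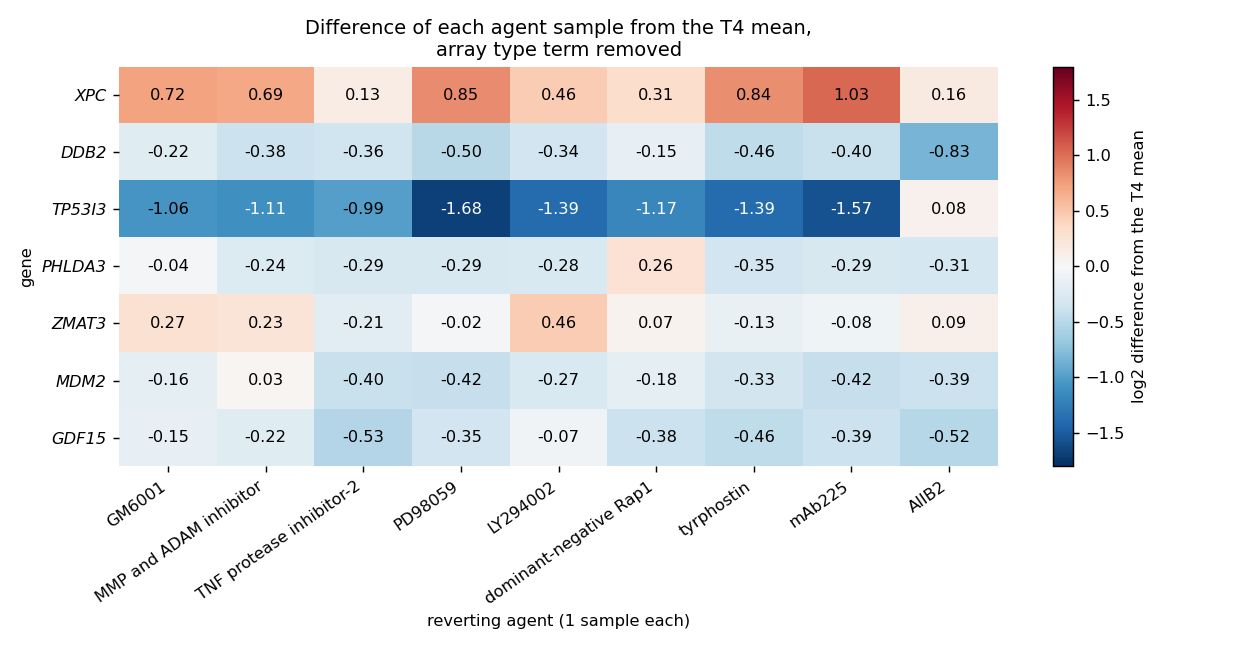
Log2 difference of each agent sample (columns) from the T4 mean for the 7 measured members (rows), after removal of the fitted array type term, with the value in each cell. TP53I3 is below the T4 mean in all columns but AIIB2. XPC is above it in all 9, and above the mean of T4 samples 1 and 2 in 6.

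Agents aimed at the same receptor can be set side by side. The tyrphostin, a small kinase inhibitor, and the antibody mAb225 read 10.21 and 10.41 for XPC, 8.95 and 8.78 for TP53I3, 8.98 and 9.04 for DDB2, and 7.43 and 7.50 for PHLDA3. PD98059, which acts on the MAPK pathway downstream of EGFR, read 10.22, 8.67, 8.94 and 7.50 for the same genes. AIIB2 read 9.53 for XPC and 10.43 for TP53I3, on the T4 side of these agents for each gene. When the agents were grouped by target into 3 classes of 3 (proteases; MAPK, PI3K and Rap1; EGFR and β1-integrin), no member passed the test between classes, and 0% of the 9111 genes were called by limma's F-test. At an unadjusted p under 0.05 it found 496 genes (5.44%), near the share that this threshold gives by chance, and 0 of the 6 members. Against T4, TP53I3 stood at -1.04 ± 0.39 with the protease class (adjusted p = 0.116), at -1.38 ± 0.43 with the MAPK, PI3K and Rap1 class (adjusted p = 0.067) and at -0.92 ± 0.49 with the EGFR and β1-integrin class (adjusted p = 0.301). None of the 6 members passed against T4 in any class, where 10.8%, 9.04% and 6.16% of all genes did.

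Other targets of p53 included genes called in each direction. Of 31 tested genes that p53 is known to raise, 4 were higher and 4 lower in T4 than in S1 (median -0.02), 4 were higher and 6 lower in T4R than in T4 (median -0.14), and 2 were higher and 7 lower in T4R than in S1 (median -0.09). Of all genes, 14.6% were higher and 12.3% lower in the first comparison, 6.46% and 8.44% in the second, and 11.8% and 11.4% in the third. Without S1 sample 3 these counts were 7 and 5, 4 and 6, and 4 and 4. Among 8 genes of growth arrest, BTG1, an antiproliferative gene, fell by 1.52 ± 0.38 in T4 (adjusted p = 0.00949) and rose by 1.67 ± 0.35 with the agents (adjusted p = 0.00697). BTG1 varied widely among the T4 samples (mean 11.36, SD 1.06), against SDs of 0.23 in S1 and 0.25 in T4R. CCNG1, cyclin G1, fell by 0.98 ± 0.18 in T4 and was also lower in T4R than in S1 (-1.37 ± 0.15, adjusted p = 3.73e-05). The kinase gene PLK3 rose by 0.55 ± 0.10 in T4 and fell by 0.64 ± 0.09 with the agents. CDKN1A, which encodes the CDK inhibitor p21, did not pass in any comparison, at 0.46 ± 0.66 in T4 against S1, -1.75 ± 0.61 in T4R against T4 (adjusted p = 0.0729) and -1.28 ± 0.54 in T4R against S1 (adjusted p = 0.109).

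Among 11 tested cell death genes, the BH3-only gene PMAIP1 rose by 1.77 ± 0.26 in T4 (adjusted p = 0.00031) and was still higher in T4R than in S1 (1.54 ± 0.22, adjusted p = 0.000247). The nuclease gene AEN rose by 0.46 ± 0.11 and fell by 0.44 ± 0.10 with the agents. The death receptor genes TNFRSF10B (-1.22 ± 0.23, adjusted p = 0.0039) and FAS (-0.87 ± 0.21, adjusted p = 0.0138) and the BH3-only gene BBC3 (-0.25 ± 0.07) fell with the agents, and NINJ1, a mediator of membrane rupture, rose (0.75 ± 0.18). Of the 5 that were lower in T4R than in S1, the 4 of smallest p were TNFRSF10B, BAX (-0.65 ± 0.14), FAS (-0.88 ± 0.19) and BBC3 (-0.26 ± 0.07). Among 12 genes of metabolism, stress and repair, the sestrin gene SESN1 fell by 1.54 ± 0.22 in T4 (adjusted p = 0.000212) and rose by 1.29 ± 0.20 with the agents (adjusted p = 0.001), and RPS27L fell by 0.99 ± 0.19 and rose by 0.66 ± 0.18. EI24 rose in T4 (0.56 ± 0.17), and the iron reductase gene STEAP3 fell with the agents (-1.22 ± 0.34) and was lower than in S1 (-1.23 ± 0.31). SESN1, BTG1 and RPS27L were thus lower in T4 than in S1 and higher with the agents than in T4. These 2 comparisons share the T4 samples and are not independent.

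**Figure D4:**
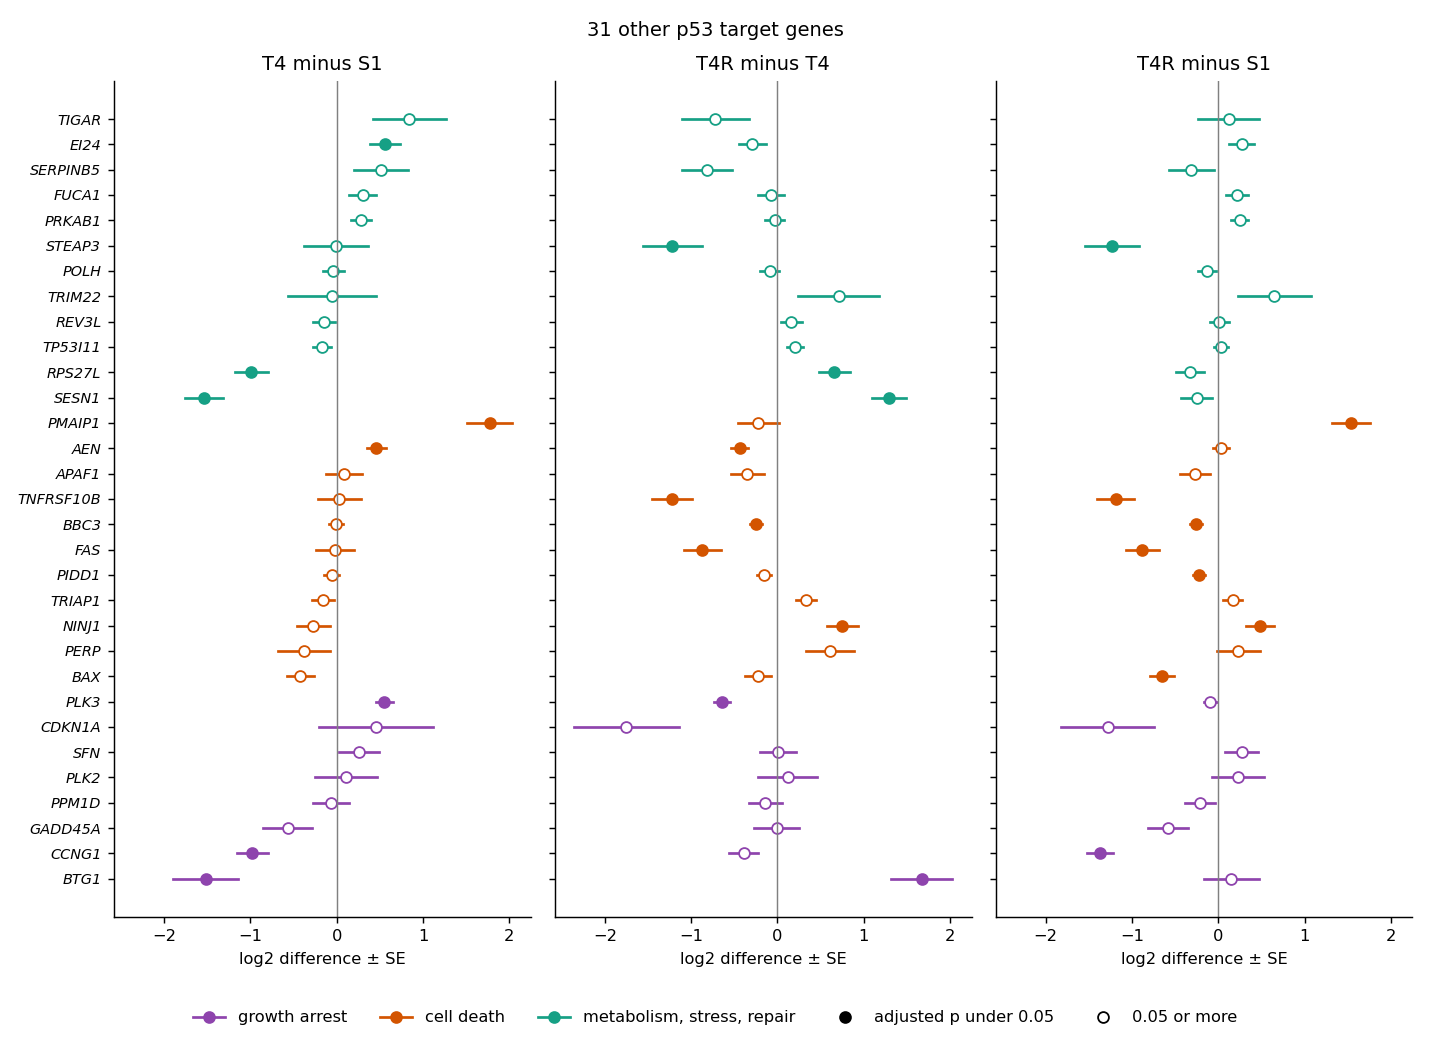
Fitted log2 differences ± SE (x axis) of 31 other tested p53 targets (y axis) in the 3 comparisons, coloured by role, with filled points for adjusted p under 0.05. BTG1 and SESN1 lie at -1.52 and -1.54 in T4 against S1 and at 1.67 and 1.29 in T4R against T4, and PMAIP1 lies at 1.77 and 1.54 in the comparisons with S1.

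Of 13 tested regulators of p53, 2 were higher in T4, the checkpoint kinase gene CHEK2 (0.51 ± 0.17) and USP7, which encodes a deubiquitinase of MDM2 and p53 (0.62 ± 0.15, adjusted p = 0.00798). CDKN2A, whose ARF product restrains MDM2, rose with the agents (0.74 ± 0.21, adjusted p = 0.0276) and was the only regulator called in that comparison. In T4R against S1, USP7 was higher (0.53 ± 0.12), and CHEK1 (-0.53 ± 0.13), HIPK2 (-0.43 ± 0.12) and TP53BP1 (-0.42 ± 0.14) were lower. MDM4, the MDM2 homologue, passed in no comparison (-0.23 ± 0.13, 0.02 ± 0.12 and -0.20 ± 0.11 in the order above). Of all genes, 14.6% were higher and 12.3% lower in T4 than in S1, 6.46% and 8.44% in T4R against T4, and 11.8% and 11.4% in T4R against S1. Without S1 sample 3, the counts of higher and lower regulators were 2 and 2, 1 and 0, and 1 and 1. Of the ribonucleotide reductase subunits that RRM2B can pair with or replace, RRM2 was higher in T4 (2.57 ± 0.79, adjusted p = 0.0269) and RRM1 was not called (-0.14 ± 0.27, adjusted p = 0.76).

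The genes most like each called member over the 15 samples, by Pearson's r after removal of the array type term, were TENM4 (0.95) and GFUS (0.94) for MDM2, ERF (0.95) and IRX4 (0.93) for DDB2, KLF9 (0.92) and PAWR (0.91) for XPC, ITGA10 (0.93) and ASXL1 (0.92) for PHLDA3, and ACTR3 (0.94) and SAP30L (0.93) for TP53I3. These are the highest of 9111 genes, over samples that share lines and array types, and no other member was among them.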

How the data were processed

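RNA was isolated in Trizol and biotin-labelled, per the labels' protocols. The deposited values are log2 expression per probe set, as their range shows, and come in 2 tables, 1 for each array type. The authors' summarisation software, background correction and normalization are not stated in the labels. Probe sets were named through the platform annotations, with symbols updated through RefSeq. Of 22215 probe sets, 19707 had 1 gene, giving 12149 genes, each read from the probe set of highest mean. The dimmest 25% were left out and 9111 genes tested.

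Tests used limma 3.58.1 in R 4.3.3 (lmFit and eBayes, 2-sided, Benjamini-Hochberg adjustment, threshold 0.05) over all 15 samples, with 3 groups (S1, T4, T4R) and array type as a block. A second fit split T4R into 3 classes by the target in the labels; the place of dominant-negative Rap1 rests on knowledge of the study. The fit was tested on simulated data. All 9 members were named. Of the other lists, called genes were named from up to 4 of smallest p per direction and comparison, and not every such gene was named. Besides these, MDM4, CDKN1A, DDB1, RAD23B, RRM1, RRM2 and MKI67 were named, and for each called member the 2 genes of most alike pattern. The members and lists were chosen with earlier results of these data known.

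Samples of S1 and T4 share numbers 1 to 3 in their titles. Deviations from the group means correlated at 0.28, 0.31 and 0.39 between same-numbered samples. S1 sample 1 and T4 sample 2 also correlated at 0.31, and S1 sample 2 and T4 sample 1 at 0.29, so these correlations mainly set sample 3 apart. No label says that equal numbers mark shared cultures. The main fit therefore did not pair samples, and the replicate number was a block only among the alternatives. Precision is limited by the number of arrays. Alternatives were another array type block, normalization, filter or probe set rule, fewer samples, array weights and the replicate block.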

Additional observations from a re-analysis of the deposited data

Results flagged for a closer look

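In the T4R group of 9 samples, a single agent sample lay far from the others for 2 of the 7 measured members, by the gap to the nearest sample as a share of the group's range. PHLDA3 read 8.05 with dominant-negative Rap1, against 7.52 in the next sample, a gap of 0.69 of the range where 0.493 is the 95% critical value. TP53I3 read 10.43 with AIIB2, against 9.36 in the next sample, a gap of 0.605 of the range. The rule was applied to deposited values of both array types together. With the array type term removed (0.23 for PHLDA3), PHLDA3 read 7.82 with dominant-negative Rap1, 7.52 in the next sample and 7.20 in the lowest. That gap is a smaller share of the range, so the PHLDA3 flag depends in part on the array type. TP53I3 then read 10.34, 9.28 and 8.58. The rule was not applied to these values. Chance sets off this rule in about 1 of 20 groups. Dominant-negative Rap1 also had the lowest mean level of the 10 cell division genes, at 7.50 against 8.78 to 9.47 with the other agents, and AIIB2 read 8.96 there. The fibroblast marker DCN read 9.57 with dominant-negative Rap1 and 8.70 with AIIB2, against 7.28 to 8.02 with the other agents. The part of these levels in the PHLDA3 and TP53I3 values was not tested.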

How the results depend on the processing

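Of 492 alternative values for single members, 440 kept their direction and side of the threshold, 31 lost the call, 6 gained one in the same direction and 15 turned direction, 4 of them past the threshold. For T4 against S1 the count of called members was 1. It was 0 with the first array type alone, with only the samples of the 2 groups, and after joint removal of dominant-negative Rap1 and both samples numbered 3. With the replicate block it was 2 beside the array type block and 0 without it. Beside the array type block, that fit rests on samples 1 and 2 of each line. For T4R against T4 the count of 1 became 0 with no filter or with only the 2 groups, and 2 with array weights. It stayed 1 without T4 sample 3 and after the joint removal, but the member called was then DDB2 and not TP53I3. For T4R against S1 the count of 3 became 1 when the dimmer 50% of genes were left out (2 of the 3 called members were then not tested). It stayed 3 with array weights and after the joint removal, with ZMAT3 called in place of MDM2. DDB2 was lost with no array type block, also with quantile normalization across tables (-0.63, adjusted p = 0.0725). Leaving out single samples gave counts of 0 to 2, 0 to 1 and 1 to 3 in these comparisons, and the 1 is without S1 sample 3. Without S1 sample 3, all differences of T4R from T4 or S1 rest on the 3 agents of the first array type. The class test called no member in any setting. ZMAT3 turned direction most often. In T4 against S1 it was 0.13 with the first array type alone and with only the 2 groups, 0.21 after the joint removal and with the replicate block beside the array type block, 0.15 with array weights, and -0.48 to 0.13 over single samples left out. In T4R against S1 it was 0.45 with the first array type alone and after the joint removal, 0.31 with array weights, and -0.35 to 0.45 over single samples. In T4R against T4 it ran from -0.07 (without LY294002) to 0.32, with -0.01 without T4 sample 3. DDB2 was 0.02 in T4 against S1 after the joint removal and with the replicate block beside the array type block, and 0 in T4R against T4 with quantile normalization across both tables and no array type block. Over all genes, array weights raised the counts from 2452 to 4180, from 1358 to 3160 and from 2116 to 3854. Except where fewer samples or genes were used, the cause was not tested. The replicate block was fitted for T4 against S1 alone, where it changed no member call other than those of XPC and TP53I3. Signal near the dim end limits MDM2, PHLDA3 and GDF15.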
